A study of Mus musculus with 8 samples.

Results

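The genes described here are the AP-1 and Egr immediate early genes, a group of 10 symbols of which 8 have a row among the 14033 symbols of the authors' deposited table: Fos, Fosb, Jun, Junb, Jund, Egr1, Ier2 and Dusp1. Egr2 and Atf3 have no row and were not analysed here. The group was selected on the GFP+ and Tomato+ means of this same comparison, so the differences below are a description and not independent evidence. RNA came from mouse fetal liver at E14.5, from embryos of Flt3-Cre mice crossed to the mTmG reporter strain, so both fractions carry the same Cre and the same reporter. Cells that were lineage-negative, Kit+, Sca1+ and CD150+ were sorted into a GFP+ fraction, in which Flt3-Cre had recombined the reporter, and a Tomato+ fraction, in which it had not, with 4 libraries each. The sample titles print Cd150 without a sign, and it is read here as CD150+. GFP marks a history of Flt3 promoter activity, not its present state. The labels do not say whether the libraries came from separate embryos, and p-values may then measure technical spread. A normalized count is a library's reads for a gene divided by that library's size factor, and the values below are means of it unless said otherwise. Of the genes behind the sort, Kit had mean normalized counts of 4087 in GFP+ and 4950 in Tomato+, Ly6a (Sca1) 59.5 in GFP+ and 70.1 in Tomato+, and Slamf1 (CD150) 27.9 in GFP+ and 119 in Tomato+, so all 3 were present in both fractions. Flt3 itself was at 3753 in GFP+ and 1617 in Tomato+.

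Immediate early genes are transcribed within minutes of a growth factor, cytokine or stress signal, without the need for new protein, because the factors that start them are already in place and are switched on by MAP kinases. Fos proteins bind DNA only as partners of Jun proteins, and such pairs form the AP-1 transcription factor, while Jun proteins can also pair with each other. Egr1 is a zinc finger transcription factor induced by the same kinases, and in adult mice it is known for restraining the division and the release of stem cells from the bone marrow. The transcripts are short-lived, and enzymatic or mechanical handling of tissue is itself known to induce them.

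Fos, Fosb, Egr1 and Jun were far lower in GFP+ cells, while Junb, Jund, Ier2 and Dusp1 did not pass the authors' threshold of an adjusted p under 0.05. The 4 genes that passed were all lower in GFP+. Among all 14268 rows, 7.49% were called, 2.64% lower and 4.86% higher in GFP+, and nothing is read from the members' count against these shares, since this contrast chose the group. The median log2 of GFP+ over Tomato+ was -1.64 for the 8 genes and 0.0095 for all rows. Summed, the 4 called genes had 138 normalized counts in GFP+ and 1064 in Tomato+, 7.71-fold lower. The 4 uncalled genes summed to 1634 in GFP+ and 1827 in Tomato+, 1.12-fold lower. In bulk RNA, fewer cells with a transcript and less of it per cell cannot be told apart.

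**Figure D1:**
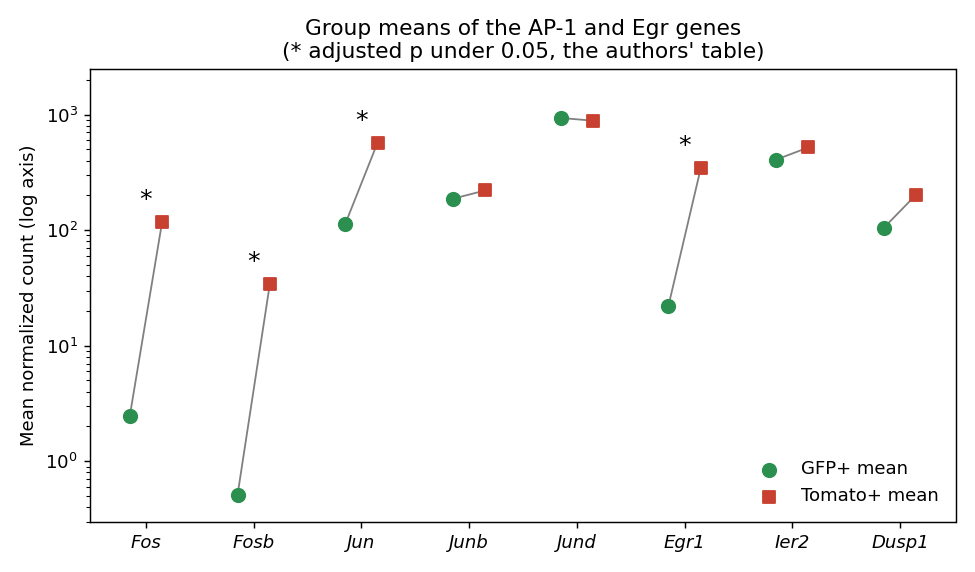
Mean normalized counts of the 8 genes in GFP+ (green circles, left) and Tomato+ (red squares, right) on a log axis, from the authors' deposited table, which gives no error for a mean. The 4 genes with an asterisk have an adjusted p under 0.05, and all 4 are lower in GFP+; Jund at 935 in GFP+ and 885 in Tomato+ is nearly level.

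Among the Fos genes, Fosb, an inducible partner of Jun proteins, averaged 0.51 in GFP+, against 34.1 in Tomato+, per the authors' deposited table. Its log2 of -6.06 was the lowest of all 14268 rows (66.9-fold lower in GFP+, adjusted p = 0.00124, the authors' DESeq table). Every row has reads in both fractions, so a gene without any GFP+ read could not be ranked here. Fos, a partner of Jun proteins and a classic marker of recent stimulation, averaged 2.47 in GFP+, against 117 in Tomato+, per the authors' deposited table. It ranked 3 of 14268 by lowest log2, and 1 of the 10660 rows with an overall mean of at least 50 (log2 -5.57, adjusted p = 5.47e-12, the authors' DESeq table). Fos and Fosb were thus close to undetected in GFP+ cells.

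Egr1 averaged 22.1 in GFP+, against 342 in Tomato+, per the authors' deposited table. It ranked 7 of all rows and 2 among those whose overall mean reached 50 (log2 -3.96, adjusted p = 8.72e-19, the authors' DESeq table). The 6 other named rows with the lowest log2 at that mean were Ptrf, Vwf, Mest, Pdzk1ip1, Elane and Dach1, at -2.79 to -2.41 in the authors' deposited table. Fos and Egr1 therefore lay well below the next row, Ptrf at -2.79. With 2 group means a likeness in pattern can rest on the ratio alone, and nothing on shared control follows from it.

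Among the Jun genes, Jun, the main partner of Fos, averaged 113 in GFP+, against 570 in Tomato+, per the authors' deposited table (log2 -2.34, rank 65 of all rows, adjusted p = 6.77e-16, the authors' DESeq table). Junb, a relative that can counteract Jun, had 187 in GFP+ and 220 in Tomato+ (log2 -0.24, adjusted p = 1.0, the authors' DESeq table). Jund, the member that is made in most resting cells, had 935 in GFP+ and 885 in Tomato+ (unadjusted p = 0.0455, adjusted p = 0.29, the authors' DESeq table). The log2 of Jund, 0.08, turned to -0.077 with group totals made equal. Of the summed counts of the 3 Jun genes, Jun took 9.15% in GFP+ and 34.0% in Tomato+, and Jund 75.7% in GFP+ and 52.8% in Tomato+. These are shares of counts not divided by gene length, and Jun is the longest of the 3. Its merged coding-transcript exons (GENCODE M21) span 3189 bases, against 1809 for Junb and 1668 for Jund. The shares of Jun are therefore larger than they would be per length.

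Among the remaining genes, Ier2, a nuclear protein induced with Fos, had a mean of 407 in GFP+ and 519 in Tomato+ (log2 -0.35, adjusted p = 1.0, the authors' DESeq table). Dusp1, the phosphatase that switches MAP kinases off, had 105 in GFP+ and 203 in Tomato+ (log2 -0.95, unadjusted p = 0.0559, adjusted p = 0.328, the authors' DESeq table). In Dusp1 the direction was that of Fos, but the difference did not pass. Some rows of similar mean were called with less: among the 3312 rows with a mean from 50 to 200, 143 were called lower in GFP+, the smallest at a log2 of -0.52. The median log2 of those 143 was -1.24, a larger change than that of Dusp1. In annotation GENCODE M21 (GRCm38), Junb overlaps Prdx2, Dusp1 overlaps Ergic1 and 3 genes without a row, Jun overlaps Junos, and Jund overlaps Gm11175. No source used here says whether the counting used strand, so the values of Jun, Junb, Jund and Dusp1 are uncertain in this respect.

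**Figure D2:**
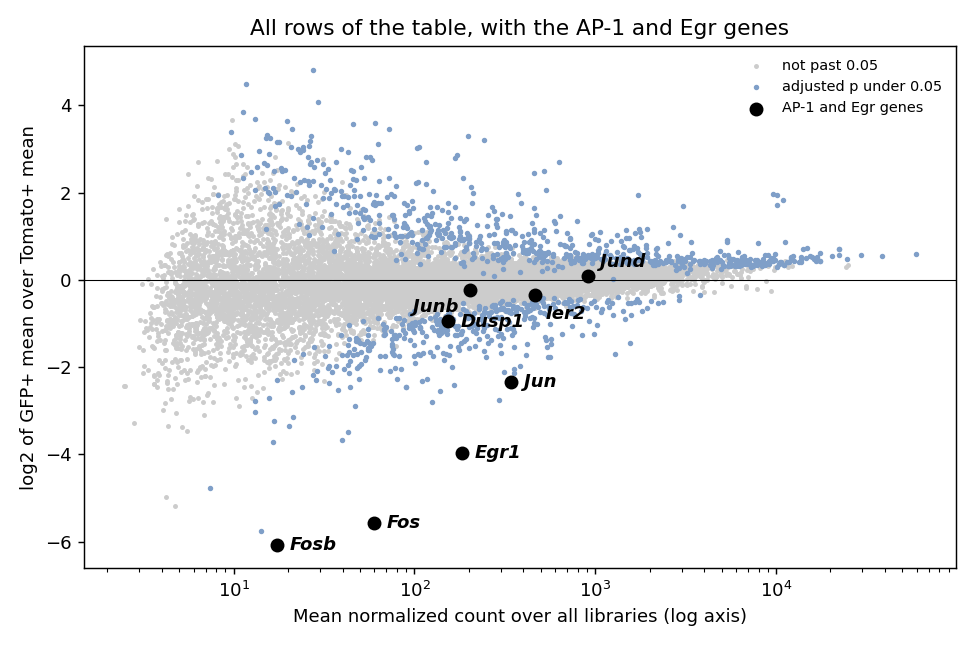
Every row of the authors' deposited table by its overall mean normalized count (x, log axis) and its log2 of GFP+ over Tomato+ (y), with rows past an adjusted p of 0.05 in blue and the 8 genes in black. Fosb, Fos, Egr1 and Jun lie at -6.06, -5.57, -3.96 and -2.34, at or beyond the lower edge of the cloud, and Junb, Jund and Ier2 lie inside it.

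Levels can be set between genes only per length. Per kilobase of merged coding-transcript exons (GENCODE M21), Jund had the highest mean normalized count, at 560 in GFP+ and 530 in Tomato+, followed by Ier2 at 268 in GFP+ and 341 in Tomato+. In Tomato+ the order went on with Jun at 179, Junb at 122, Dusp1 at 85.5, Egr1 at 76.3, Fos at 55.7 and Fosb at 9.01 per kilobase. In GFP+ it went on with Junb at 103, Dusp1 at 44.2, Jun at 35.4, Egr1 at 4.92, Fos at 1.17 and Fosb at 0.13 per kilobase. Jun thus stood below Junb and Dusp1 in GFP+ and above both in Tomato+, and Fos and Fosb were last in both fractions. No spread between libraries is known for these per-kilobase values, so it was not tested which neighbours in the order differ.

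The table gives group means, but the low GFP+ means can be traced back to reads. If a mean is the average of each library's reads divided by its size factor, every low mean is a sum of whole multiples of 4 steps. All 1678 rows with a GFP+ mean under 14 were given by exactly 1 such sum, within the rounding of the printed digits. Of 2539 rows under 25, 2484 were given by 1 sum and 55 by several, and every row had at least 1. The steps put the size factors of the 4 GFP+ libraries at 0.98, 0.96, 0.63 and 0.22, so the shallowest library had 22.4% of the depth of the deepest. Which labelled replicate each of them is cannot be told from the means. The Tomato+ means, and the GFP+ means of the other 5 genes, were above the range in which reads were recovered.

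Fosb rested on 2 reads in the deepest GFP+ library and 0 in the other 3. Fos rested on 2, 6, 1 and 0 reads in the libraries from the deepest to the shallowest. As normalized counts these are 2.04, 6.25, 1.58 and 0 for Fos, against a Tomato+ mean of 117. Each GFP+ library thus lay far below the Tomato+ mean. Egr1 rested on 44, 16, 14 and 1 reads, or 44.8, 16.7, 22.2 and 4.55 normalized counts, against a Tomato+ mean of 342. Egr1 was therefore low in every GFP+ library, but unevenly so: its coefficient of variation over the 4 libraries was 0.77, against a median of 0.36 over 709 rows with GFP+ means from 15 to 25, and 88.6% of those rows varied less.

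Weighted by depth (all reads over the summed size factors), Fos was at 3.22 in GFP+ (exact 95% Poisson interval 1.47 to 6.12), 36.4-fold under the Tomato+ mean (19.2 to 79.6). Fosb was at 0.72 in GFP+ (0.087 to 2.59), 47.6-fold under the Tomato+ mean (13.2 to 393). Egr1 was at 26.9 in GFP+ (21.1 to 33.7), 12.7-fold under it (10.2 to 16.2). The intervals cover counting error in GFP+ only and take the Tomato+ mean as fixed. That mean could not be weighted by depth, so these folds set a weighted GFP+ level against an unweighted Tomato+ mean. Leaving out single GFP+ libraries moved the differences by over 1.5 times in these cases: without the second deepest library Fos was 97.2-fold lower in place of 47.5-fold, and without the deepest Egr1 was 23.7-fold lower in place of 15.5-fold. Without the deepest library no Fosb read was left, so no fold could be computed. A floor set at 3 reads over the other 3 libraries would put Fosb 20.6-fold lower. No Tomato+ library could be left out, so whether a single Tomato+ library carries the Tomato+ means of these genes was not tested.

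**Figure D3:**
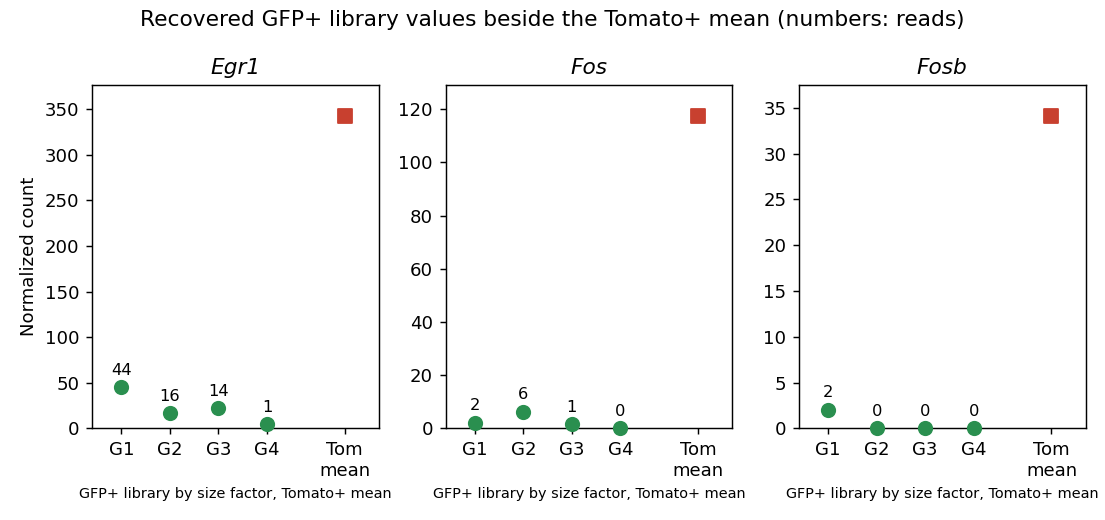
Normalized counts of Egr1, Fos and Fosb in the 4 GFP+ libraries, G1 to G4 from the deepest to the shallowest (green, with the recovered number of reads above each point), beside the Tomato+ mean (red square), on linear axes from 0. The highest GFP+ library is at 44.8 for Egr1, 6.25 for Fos and 2.04 for Fosb, against Tomato+ means of 342, 117 and 34.1.

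The proximal promoters are shown because the genes that were low together and those that were not can be read side by side there. RefSeq (GRCm38.p6) promoters of 6 of the 8 genes were read, and the 250 bases before the start are printed for 5 of them, 5′ to 3′. No promoter of Egr1, one of the 4 called genes, or of Ier2 is shown, so the reading covers 3 of the 4 called genes. Capitals mark every match on either strand. The motifs searched were TGACGTCA, the cyclic AMP response element, and its core TGACG. The AP-1 element was searched as TGANTCA, an AP-1-like element known from the Jun promoter as TGACATCA, and the Egr element as GCGNGGGCG. The TATA box was searched as TATAAA, and the CArG box of serum response factor by its usual pattern. A match to the whole cyclic AMP response element holds its core and counts for both.
Fos (chr12:85473640-85473889, plus strand): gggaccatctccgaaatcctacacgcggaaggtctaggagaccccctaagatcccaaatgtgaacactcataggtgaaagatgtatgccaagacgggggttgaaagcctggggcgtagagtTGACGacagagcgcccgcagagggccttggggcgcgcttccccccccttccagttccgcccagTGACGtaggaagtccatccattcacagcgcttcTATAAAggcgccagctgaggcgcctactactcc
Fosb (chr7:19310046-19310295, minus strand): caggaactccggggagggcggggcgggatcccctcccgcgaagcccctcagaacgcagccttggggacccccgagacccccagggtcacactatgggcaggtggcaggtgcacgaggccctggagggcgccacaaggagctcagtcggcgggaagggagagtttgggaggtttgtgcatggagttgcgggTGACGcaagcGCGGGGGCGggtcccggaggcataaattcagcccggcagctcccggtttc
Jun (chr4:95052223-95052472, minus strand): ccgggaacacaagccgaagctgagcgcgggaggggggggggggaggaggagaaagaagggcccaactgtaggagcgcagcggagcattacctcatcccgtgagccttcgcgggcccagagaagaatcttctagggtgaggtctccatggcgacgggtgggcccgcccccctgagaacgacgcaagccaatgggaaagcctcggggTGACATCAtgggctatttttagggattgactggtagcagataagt
Junb (chr8:84978749-84978998, minus strand): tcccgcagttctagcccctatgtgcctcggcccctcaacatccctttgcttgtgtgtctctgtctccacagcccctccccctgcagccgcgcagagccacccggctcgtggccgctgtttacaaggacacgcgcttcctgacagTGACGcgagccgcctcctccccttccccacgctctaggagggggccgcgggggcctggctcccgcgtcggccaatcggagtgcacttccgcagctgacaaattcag
Dusp1 (chr17:26508473-26508722, minus strand): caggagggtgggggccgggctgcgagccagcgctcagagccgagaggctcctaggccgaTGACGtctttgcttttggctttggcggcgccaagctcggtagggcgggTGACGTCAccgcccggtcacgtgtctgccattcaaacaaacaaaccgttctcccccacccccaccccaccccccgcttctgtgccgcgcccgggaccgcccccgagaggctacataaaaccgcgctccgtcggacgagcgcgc

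Fos, Fosb, Junb and Dusp1 held the core TGACG, which 17.8% of all 32851 promoter windows of that length hold, and it was in genes that were called and in genes that were not. The whole TGACGTCA was found in Dusp1, at 143 bases before the start, and is in 1.55% of windows. Jun held TGACATCA at 45 bases before its start, which 2.93% of windows hold. Fosb held the Egr element GCGGGGGCG at 50 bases before its start, a motif of 4.70% of windows, and Fos held TATAAA at 33 bases, which is in 12.4% of windows. No window of these 5 genes or of Jund matched TGANTCA (6.75% of windows) or the CArG box (1.47%), which says only that the letters are not in these 250 bases. The window of Jund, which is not printed, held none of the motifs searched. A match is not evidence of binding.

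The genes around the 8 were read for comparison. For each of the 8 genes the 2 nearest protein-coding genes with a row on either side were read, in the gene order of RefSeq GRCm38.p6, which gave 32 genes. Their median log2 was 0.05, with 1 called lower and 2 called higher (GFP+ over Tomato+, the authors' DESeq table). Fos lies beside Jdp2 and Batf, which encode other AP-1 partners, and their log2 values, which did not pass, were 0.75 and 0.04. Of the 4 genes around Fosb, the log2 values ran from 0.05 for Vasp to 0.29 for Ercc1. Beside Jun, Tek, an angiopoietin receptor of stem cells and endothelium, fell to 144 in GFP+, against 461 in Tomato+ (adjusted p = 1.81e-13, the authors' DESeq table), whereas Mysm1, Fggy and Hook1 did not pass. The 2 called higher were Prdx2, beside Junb, and Hspa9, beside Egr1, at 0.51 and 0.40 on the log2 scale. The neighbours were chosen after the values of the 8 genes were seen.

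**Figure D4:**
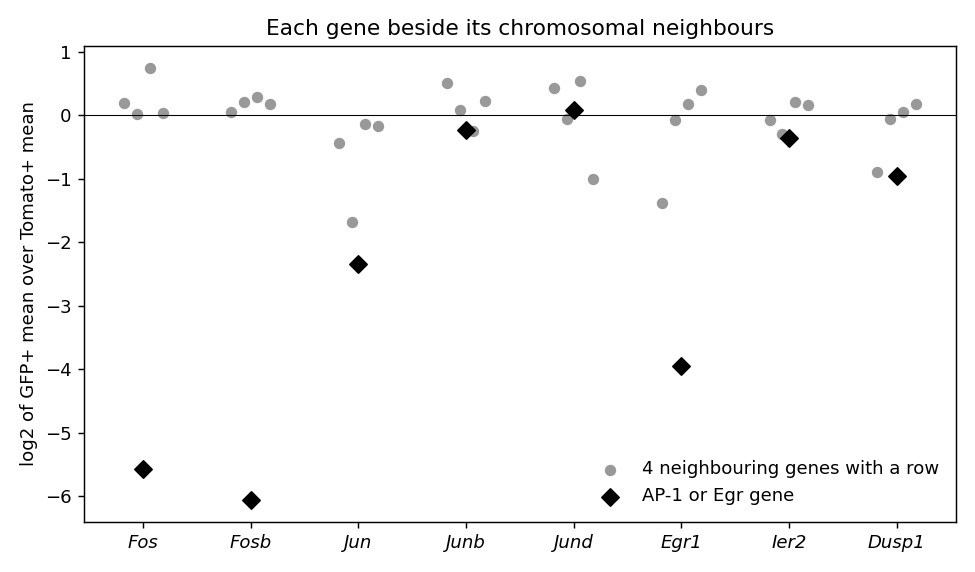
The log2 of GFP+ over Tomato+ of each of the 8 genes (black diamonds) and of its 4 nearest protein-coding neighbours with a row (grey circles). Fos, Fosb and Egr1 at -5.57, -6.06 and -3.96 lie below all of their neighbours, which run from -1.39 to 0.75, and 1 neighbour of Jun, Tek, lies at -1.68.

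Related genes were read from 6 lists: other AP-1 partners, Egr relatives, other immediate early genes, feedback inhibitors, upstream factors and kinases, and heat shock genes. The lists differ in kind, so the sums over them describe no single response. Of 111 listed genes, 104 had a row, and 8 were called higher and 1 lower in GFP+, or 7.69% and 0.962%, against 4.86% and 2.64% of all rows. Heat shock genes gave 3 of the 8 higher calls. The median log2 of the 104 was -0.014. Of the 104, 1 reached the log2 of Jun: Ctgf, chosen after its values were seen, with means of 0.52 in GFP+ and 5.09 in Tomato+ that did not pass.

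Of 16 other AP-1 partners with a row, none passed in the authors' DESeq table, with 4 at an unadjusted p under 0.05, and the median log2 was 0.0053. Among those with the smallest p were Mafk, a small Maf protein (416 in GFP+ and 345 in Tomato+), and Jdp2, a repressor that pairs with Jun (124 in GFP+ and 73.5 in Tomato+). Fosl2 and Fosl1, Fos relatives chosen after their values were seen, did not pass. Fosl2 had 77.5 in GFP+ and 129 in Tomato+ (adjusted p = 0.267, the authors' DESeq table). Fosl1 had 10.5 in GFP+ and 15.6 in Tomato+ (adjusted p = 0.961, the authors' DESeq table). Of the Egr relatives and Nab corepressors, Egr3, Egr4 and Wt1 have no row. Nab2, a corepressor that Egr1 is known to induce, had 62.8 in GFP+ and 111 in Tomato+ and Nab1 501 in GFP+ and 547 in Tomato+, with adjusted p = 0.145 and 0.766 in the authors' DESeq table.

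Of 27 other immediate early genes, 4 rose and 0 fell in the authors' DESeq table, with 9 at an unadjusted p under 0.05. The list's median log2 was -0.16. Myc, a driver of growth, had 2594 in GFP+ and 1726 in Tomato+ (adjusted p = 0.00103, the authors' DESeq table). Id2, an inhibitor of E proteins, had 114 in GFP+ and 56.4 in Tomato+, and Gadd45a, a stress sensor, 121 in GFP+ and 93.6 in Tomato+. Ppp1r15a, of the stress response, was called with 282 in GFP+ and 267 in Tomato+, a log2 of 0.079 that turned to -0.078 at equal totals. Chosen after their values were seen, the 4 lowest rows of this list by log2, none of which passed, were Ctgf, given above (log2 -3.29), Plk2, a polo-like kinase (10.7 in GFP+ and 52.8 in Tomato+, adjusted p = 0.0634), Nr4a1, a nuclear receptor (41.0 in GFP+ and 117 in Tomato+, adjusted p = 0.136), and Klf2, a zinc finger factor (16.4 in GFP+ and 57.6 in Tomato+, adjusted p = 1.0), all in the authors' DESeq table. Plk2 rested on 9, 20, 8 and 0 and Klf2 on 17, 22, 16 and 0 reads in the GFP+ libraries from the deepest to the shallowest.

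Of 21 feedback inhibitors, 1 rose and 1 fell, with a median log2 of -0.022. Dusp6, an ERK phosphatase, rose to 373 in GFP+, against 260 in Tomato+ (adjusted p = 0.00998, the authors' DESeq table). Socs2, a suppressor of cytokine signalling, fell to 81.9 in GFP+, against 186 in Tomato+ (adjusted p = 0.00137, the authors' DESeq table). Zfp36, which destabilises Fos and other short-lived transcripts, had 150 in GFP+ and 291 in Tomato+ (adjusted p = 0.0935, the authors' DESeq table). Of 28 upstream factors and kinases, none passed in the authors' DESeq table, where 1 had an unadjusted p under 0.05, and their median log2 was -0.014. The smallest p-values were those of Map3k1 (600 in GFP+ and 472 in Tomato+), Braf (332 in GFP+ and 478 in Tomato+) and Mapk9 (426 in GFP+ and 536 in Tomato+). Srf, the serum response factor that switches Fos and Egr1 on and chosen after its values were seen, had 632 in GFP+ and 660 in Tomato+ (adjusted p = 1.0, the authors' DESeq table).

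Heat shock genes encode chaperones, some made in all cells and some on stress. Of 11 with a row, 3 rose and 0 fell in the authors' DESeq table, with 6 at an unadjusted p under 0.05, and the median log2 was 0.37, or 0.21 at equal totals. The 3 that rose are abundant chaperones made in unstressed cells: Hspa8 had 26444 in GFP+ and 17887 in Tomato+, Hsp90ab1 28625 in GFP+ and 20688 in Tomato+, and Hspe1, a mitochondrial chaperone, 1712 in GFP+ and 1301 in Tomato+. Hsp90aa1, Dnaja1 and Hspd1 made up the rest of the 6, at log2 values of 0.43, 0.37 and 0.36 that did not pass. Of the 11 genes, 10 had a log2 above 0 and 1 below. The inducible Hspa1a and Hspa1b, chosen after their values were seen, had 26.8 and 32.6 in GFP+ and 18.7 and 34.0 in Tomato+, log2 values of 0.52 and -0.06 that did not pass. Hspa1a and Hspa1b are near-identical copies, so the split of reads between them is uncertain.

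**Figure D5:**
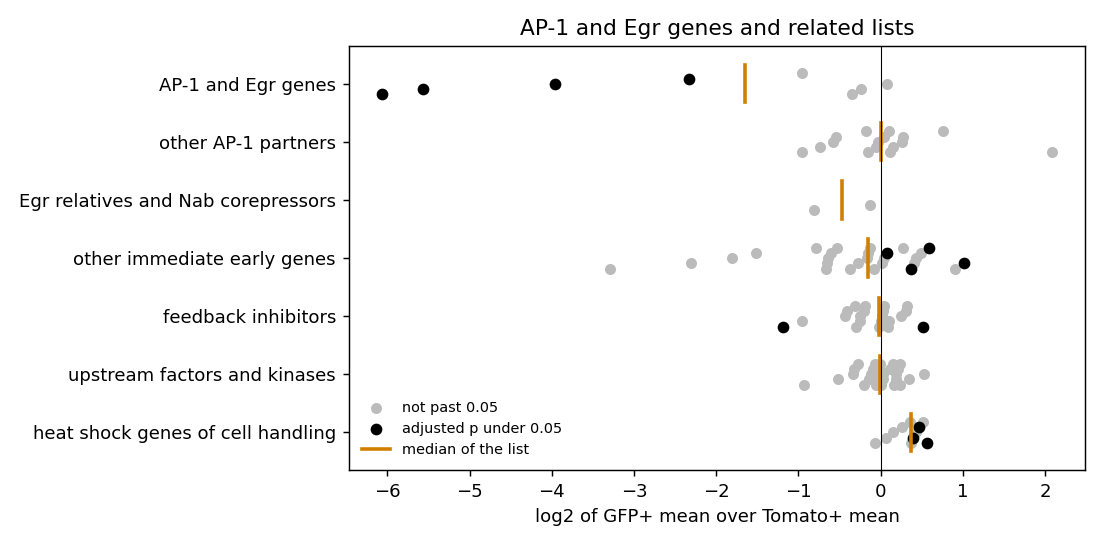
The log2 of GFP+ over Tomato+ of the 8 genes and of each gene with a row in 6 related lists, with genes past the authors' adjusted p of 0.05 in black, others in grey, and each list's median as a bar. The median is -1.64 for the 8 genes and lies between -0.47 and 0.37 for the other lists.

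Markers of other cells moved with the fractions. The marker lists were chosen with earlier results of these data known, so their counts are a description. Of all rows, 2.64% were called lower and 4.86% higher in GFP+. All 7 stem cell markers were called lower in GFP+, summing to 4683 in GFP+ and 7793 in Tomato+, as were 4 of 7 endothelial markers (1411 in GFP+ and 2629 in Tomato+) and 4 of 6 megakaryocyte markers (438 in GFP+ and 1593 in Tomato+). None of 5 stellate and mesenchymal markers passed in the authors' DESeq table, with 2 at an unadjusted p under 0.05. Of these 5, 4 had a log2 below 0 (list median -0.87), and the sums of 255 in GFP+ and 196 in Tomato+ were carried by Pdgfrb, at 241 in GFP+ and 150 in Tomato+. The 2 at an unadjusted p under 0.05 lay on opposite sides of 0: Pdgfrb, and Col1a2 at 6.75 in GFP+ and 24.6 in Tomato+. All 7 hepatoblast markers were called higher (2406 in GFP+ and 666 in Tomato+), as were 7 of 8 macrophage (1299 in GFP+ and 395 in Tomato+), 6 of 6 erythroid (36170 in GFP+ and 10141 in Tomato+) and 5 of 5 lymphoid progenitor markers (7118 in GFP+ and 2936 in Tomato+). Of 7 neutrophil markers 2 were called higher and 1 lower (6830 in GFP+ and 6568 in Tomato+). No row of any gene was at 0 in either fraction. A marker above 0 does not by itself show that its cell type was present. The part of these cell types in the values of Fos, Fosb, Egr1 and Jun was not tested.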

How the data were processed

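Bulk RNA was sequenced from sorted fetal liver cells in 4 GFP+ and 4 Tomato+ libraries. Per the submitters' processing notes, the authors used build mm9 and the tools DESeq, bedtools, TopHat, TopHat2 2.0.11 and Bowtie2 2.2.1, with no role or setting given. The authors deposited 1 table of 14268 rows with mean normalized counts per fraction (a signal averaged over libraries), their ratio and its log2 value, and p-values before and after adjustment. The file gives Tomato+ over GFP+, and the sign was turned here. A repeated header line was dropped, and each symbol was taken at its highest-mean row (every member has 1).

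No count test was run, since values per library are not given, and the test planned for counts was replaced by a reading of the authors' adjusted p. Reads behind GFP+ means under 25 were recovered by finding the coarsest 4 steps whose whole multiples gave every mean. Only the finding of the steps was tested on simulated data, not the recovered reads. The simulated test used lower means, and its size factors did not reach as low as that of the shallowest GFP+ library. Depth in absolute reads is unknown. Intervals are exact 95% Poisson intervals. Members and lists were chosen with earlier results of these data known. The rule for named genes took all members, every called gene of each list (or, where fewer than 3 were called, those with the smallest p up to 3), and the 8 named rows with the lowest log2 at a mean of at least 50; 1 gene it names is not reported here. Python 3.11.15, numpy 2.4.6, pandas 2.3.3, scipy 1.17.1 and matplotlib 3.10.9 were used.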

Additional observations from a re-analysis of the deposited data

Results flagged for a closer look

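In Fosb 1 GFP+ library, the deepest, stood apart from the other 3, at 2.04 normalized counts against 0 in each of them, which is 2 reads against 0. With 2 reads in all, and size factors from 0.22 to 0.98, the position of these reads says little about the spread between libraries.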

How the results depend on the processing

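No paired analysis was possible because only group means are given and the recovered GFP+ libraries carry no replicate number; for the same reason other size factors, no filter on low counts and leaving out labelled replicates were not run. Of the 8 genes, 4 were called at adjusted p thresholds of 0.1 and 0.01 and with a minimum log2 change of 1, and 3, without Fosb, with a Bonferroni adjustment or where only rows averaging 50 or more were kept. Over all rows 1069 calls became 699 at 0.01, 492 with that minimum change and 308 with Bonferroni, each a stricter criterion. Of the 104 further genes 9 calls became 14 at 0.1, 5 at 0.01, 2 with that minimum change and 0 with Bonferroni (24 at an unadjusted p under 0.05 in the authors' DESeq table). Scaling to equal totals lowers every log2 by 0.16 and turned Jund to -0.077. Pseudocounts of 1 and 10 gave -5.09 and -3.35 for Fos and -4.54 and -2.07 for Fosb. Chosen after seeing the data, leaving out single GFP+ libraries gave -6.60 to -5.16 for Fos and -4.56 to -3.62 for Egr1. For Fosb it gave -5.65 wherever reads were left. Without the deepest library none were left, and a floor set at 3 reads stands at -4.36. Weighting GFP+ alone by depth, against the unweighted Tomato+ mean, gave -5.19, -5.57 and -3.67 for Fos, Fosb and Egr1. Jun and the uncalled genes have no value per library in either fraction, and Fos, Fosb and Egr1 have none in Tomato+.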
